A study of Nicrophorus vespilloides with 24 samples.

Results

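In head tissue of the burying beetle *Nicrophorus vespilloides*, 100 loci of 11403 are described that were chosen for a higher mean level, on a log scale, in caring parents than in their controls in both sexes and under both social conditions. A locus is a group of overlapping assembled transcripts, named by a locus number and, where a name is used here, by the protein of another arthropod that its sequence matched best. The level of each locus was its count divided by the size factor of the library (DESeq's median of ratios) and is called the scaled count. The difference with caring was the mean of log2(scaled count + 1) in caring libraries minus that in control libraries of the same sex and social condition, which gave 4 differences per locus. The added 1 makes the difference of a low locus smaller than its fold change. Of 8491 loci with a mean scaled count of at least 20, 220 had all 4 differences at 0.3 or more, and the 100 with the highest smallest difference were taken as members. The 220 do not include 11 loci left out by name, of which 9 would have met the thresholds and 8 would have been among the 100. The members were thus chosen by their levels in the caring and control libraries, and every value of that contrast below is a description with no test. The post-caring libraries entered the choice only through the size factors and the minimum mean scaled count, both taken over all libraries.

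Burying beetles bury a small carcass, strip and pre-digest it, and feed the liquid to begging larvae by regurgitation. Odorant-binding proteins are small secreted proteins that carry hydrophobic molecules, in insect antennae mostly odorants on their way to receptors. Cytochromes P450 oxidize hormones, pheromones and plant or microbial toxins. Secreted serine proteases, carboxypeptidases and esterases take part in digestion of protein and lipid, and some act in immunity or in the breakdown of odorants.

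The study sequenced polyadenylated RNA of pooled heads, labelled as brains and described in its methods as mainly brain with associated fat body and connective tissue. There were 24 libraries of 10 beetles each, 2 libraries for each of 12 groups, and all beetles were 21 days past eclosion. Control beetles were mated and had no carcass. Caring beetles were taken from a mouse carcass when near the larvae, biparental ones with the mate still present and uniparental ones after the experimenter had removed the mate. Post-caring beetles were taken once they had deserted a brood after 4 or more days with it. The uniparental and the biparental design had separate controls and separate post-caring beetles. All beetles were held singly for 24 h before the heads were taken, so caring beetles were away from the larvae for that time. Post-caring beetles had been paired at a younger age than the others, so the time since pairing also differed from that of controls. In pooled tissue, less RNA per cell and fewer cells of a type cannot be told apart.

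Libraries held between 14647691 and 23906173 counts. Biparental libraries were shallower, with a median of 15440457 counts against 20099485 in uniparental libraries. The tissue lists below hold only loci from a list that the study chose on these samples for a change with caring. A change of their sums with caring was thus favoured by that choice and is no independent measure of tissue content. The 5 loci named for photoreceptor proteins, a tissue of the head, summed to at least 8598 scaled counts in every library. Their mean sum was higher with caring than in controls in each group: 27599 against 21347 in biparental and 58415 against 16357 in uniparental females, and 17686 against 11413 in biparental and 54257 against 20129 in uniparental males. Of the 5, 2 met the thresholds and 0 were members. Fat body loci, which are vitellogenin, apolipophorin and lipid-carrier names, differed with both sex and state. The 12 of them had mean sums of 9264660 in biparental and 4223120 in uniparental female controls, against 46562 and 79686 in the male controls. With caring the sums were 1456190 and 672493 in females and 31843 and 10269 in males. No such locus was among the members. None of the 49 muscle loci was a member either, and their sum was between 1200580 and 4159110 in control libraries and between 525609 and 3599800 in caring ones. Their mean sum was lower with caring in each group. It was 1311390 against 1334950 in biparental and 556148 against 1516310 in uniparental females. In males it was 3203760 against 3813610 in biparental and 1930720 against 2664560 in uniparental ones. A list of cuticle names held 8 loci, of which 1 was a member. Its mean sum was 1060 with caring against 582 in controls in biparental and 223 against 319 in uniparental females. In males it was 1648 against 1596 in biparental and 373 against 617 in uniparental ones. No locus of these tissue lists was at 0 in all libraries of a state, and the part of these tissues in the results was not tested.

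The smallest difference of a member was between 0.54 and 4.92 on the log2 scale, with a median of 0.84. The median difference was 1.69 in biparental and 1.98 in uniparental females, and 0.89 in biparental and 1.55 in uniparental males, against medians over all loci between -0.01 and 0.00. For 73 members the smallest of the 4 differences was that of biparental males. The largest was that of uniparental females for 45 members, biparental females for 29, uniparental males for 23 and biparental males for 3. In 38 members all 4 differences were at least 1, and in 13 all were at least 2. At the limit, Locus_59009 and Locus_78470 stood just inside with a smallest difference of 0.54 each. Just outside were Locus_C912436 at 0.54 and Locus_7620, a match to laccase 1, at 0.53. Laccases are enzymes that oxidize phenols.

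**Figure D1:**
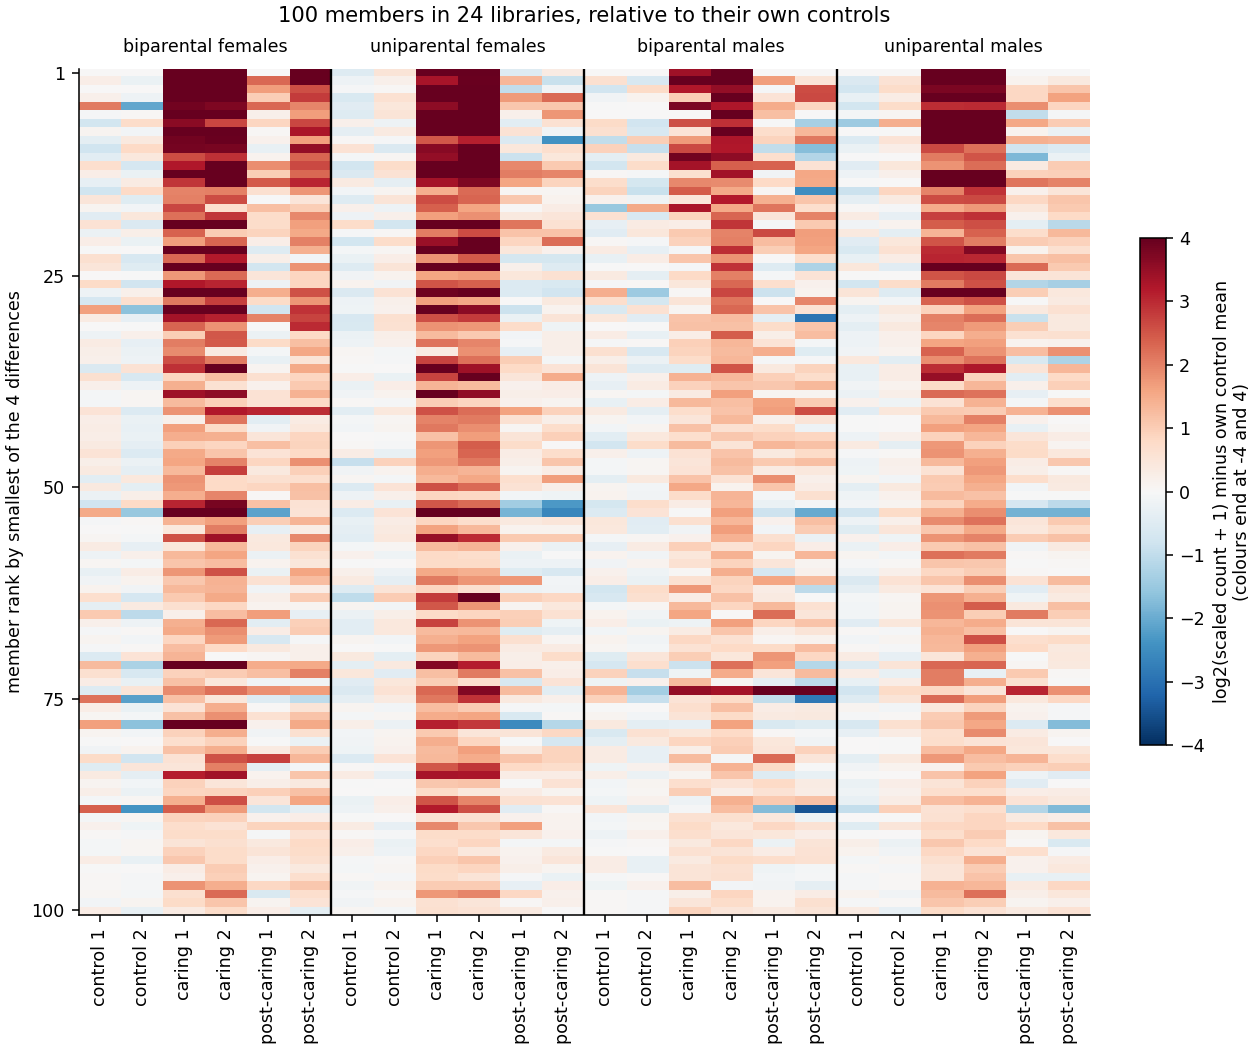
Each row is 1 of the 100 members, ordered by rank, and each column is 1 of the 24 libraries; colour gives log2(scaled count + 1) minus the mean of the library's own 2 controls. The caring columns are mostly red from top to bottom in both female groups and in uniparental males, and paler in replicate 1 of caring biparental males, while post-caring columns are mostly near white with scattered red and blue rows.

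Both caring libraries lay above both control libraries for 94 members in biparental and 100 in uniparental females, and for 69 members in biparental and 97 in uniparental males. In 67 members this held in each of the 4 groups, against 3.38% of all 8491 loci. In 22 members all 8 caring libraries lay above all 8 control libraries, against 0.448% of all loci. All of these counts follow from the choice of members, and nothing is read from them. Shares over all loci were not computed for single groups or single libraries.

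The smaller differences of biparental males came with unequal caring replicates. Over the 100 members the median difference from the control mean was 0.66 in caring biparental male replicate 1 and 1.30 in replicate 2. Replicate 2 was the higher of the pair in 71 members, and in 48.9% of all loci. In replicate 1, 75 members lay above both controls and 3 below both, and in replicate 2 these numbers were 93 and 0. With replicate 2 left out, 77 members still met all thresholds and 67 were still among the 100 chosen, the lowest numbers when any 1 library was left out. In the other 3 groups the library medians were between 1.42 and 1.99.

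**Figure D2:**
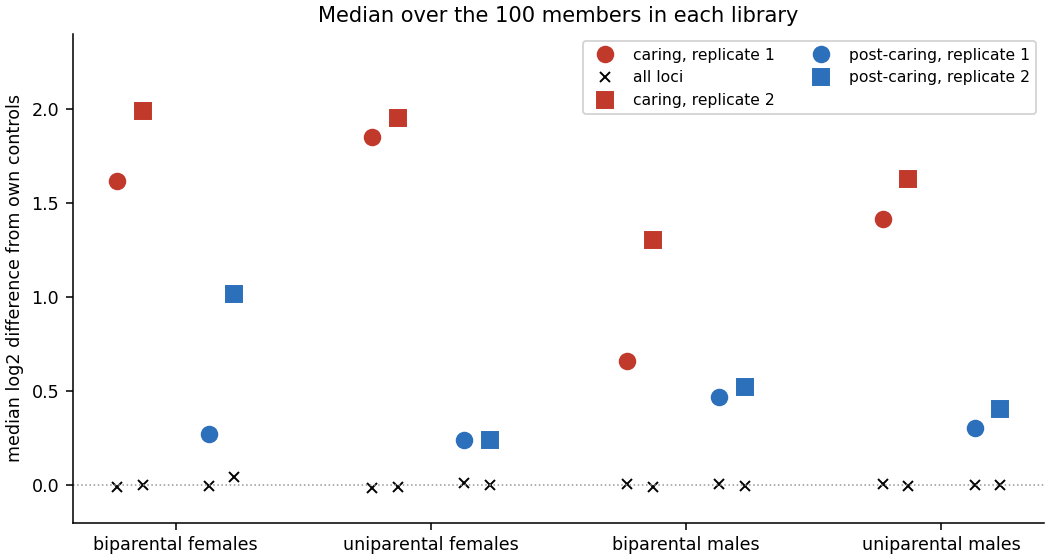
Points give the median over the 100 members of log2(scaled count + 1) minus the mean of the own controls, for each caring (red) and post-caring (blue) library, with crosses for the median over all loci. The 2 caring biparental male libraries sit at 0.66 and 1.30, below the other caring libraries, and post-caring biparental female replicate 2 sits at 1.02, above the other post-caring libraries.

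Of the 100 members, 87 had a protein description, and 39 of those descriptions carried no function name. The descriptions come from a list of 866 loci that the study chose on these samples, so the presence of a description is not independent of caring. Lists built on words in the descriptions held 30 members: 9 in an odorant and chemosensory list, 6 among cytochrome P450 and conjugation enzymes, 6 among digestive hydrolases other than serine proteases, 4 among transporters, 3 serine proteases, 1 protease inhibitor and 1 fatty acid enzyme. None of the 12 antimicrobial and melanization loci was a member. The 11 loci left out by name could not be members of any list, and which lists hold them is not reported here. A total of 5 members shared a best match with another member: 3 matched odorant binding protein 5 of the moth *Agrotis ipsilon* and 2 matched solute carrier family 2. Counts of such loci, whose sequences may be alike, are uncertain where reads could be assigned to either. Of the members, 80 consisted of 1 assembled scaffold and the rest of up to 4.

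The top-ranked member, Locus_C891842, matched the MPA3 allergen of the American cockroach. Control libraries held between 0 and 1.04 scaled counts of it. In caring libraries the values were 26.1 and 62.3 in biparental and 54.7 and 124 in uniparental females, and 9.55 and 97.4 in biparental and 34.2 and 24.8 in uniparental males. Every caring library was thus above every control library. All control libraries held 3 counts or fewer, and against a floor of 3 counts per library the mean caring level was at least 15.3-fold higher. After caring the values were 0 and 64.3 in biparental females and at most 0.774 in the other 6 libraries, so replicate 2 of post-caring biparental females alone was at a caring level.

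Cytochrome P450 names gave 5 members, and Locus_50252 ranked highest among them. Its control libraries held 19.4 and 14.5 scaled counts in biparental females, 11.7 and 27.9 in uniparental females, 6.97 and 8.55 in biparental males and 5.30 and 8.72 in uniparental males. With caring the values were 1322 and 2592, 2988 and 1246, 16.4 and 273, and 481 and 474 in the same order. Caring biparental male replicate 1, at 16.4, lay within the range of the female controls. After caring the 8 values were between 11.8 and 124 with a median of 43.4. Locus_3508, a match to the termite enzyme CYP4U3v1, and Locus_16901, a match to cytochrome P450 4C1, were almost silent in controls. Locus_3508 had a median of 0.960 in controls and of 50.6 in caring libraries, where caring biparental male replicate 1 was at 0 and replicate 2 at 47.4. Locus_16901 went from a median of 1.24 to one of 84.4, again with an uneven pair of caring biparental males, 4.09 and 37.5. Against a floor of 3 counts per library the mean caring levels were at least 20.9-fold and at least 22.7-fold higher. Locus_C910940, also cytochrome P450-like, had medians of 41.1 in control, 219 in caring and 62.8 in post-caring libraries. Locus_18562, a match to cytochrome P450 9e2, had medians of 16, 76.6 and 41.2, and Locus_7157, a match to a multidrug resistance-associated transporter, 31.6, 85.0 and 73.5.

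Enzyme families that can take part in digestion were represented by names of proteases, carboxypeptidases, esterases and an amylase. The list names are labels from words in the descriptions, and whether these loci act in digestion was not tested. Every locus of these lists also comes from the study's list of loci that changed with caring. The members were 3 of 31 serine proteases and 6 of 25 other digestive hydrolases. Over the whole lists, the summed level was lower with caring in females for both lists, and in males for the serine proteases, while the median difference of the loci with a mean scaled count of at least 20 was above 0 in each group. For the 20 such hydrolases this median was 1.19 in biparental and 1.16 in uniparental females, and 0.37 in biparental and 0.87 in uniparental males, and for the 16 such serine proteases it was between 0.27 and 1.55. The mean sum of the hydrolases was 94373 in control and 22282 in caring biparental females, 43912 and 14172 in the uniparental ones, and 3718 and 4919, then 3157 and 5474, in biparental and uniparental males. That of the serine proteases went from 31886 to 17033 and from 21039 to 18088 in females and from 21665 to 21185 and from 15579 to 11164 in males. The serine protease homolog Locus_33135 had between 0 and 16.8 scaled counts in control libraries, between 34.2 and 77.7 in caring libraries and between 6.94 and 19.6 after caring. Chymotrypsin-like Locus_330 ranged from 0 to 35.0, from 47.7 to 159 and from 2.52 to 64.3 in these states. Trypsin-like Locus_C904816 had medians of 18.2, 50.2 and 31.5. For all 3 the caring and control libraries did not overlap. The carboxypeptidase A-like loci Locus_C908342 and Locus_C908212, whose protein family trims amino acids from the end of peptides, behaved likewise, with medians of 3.56 and 9.38 in controls and 48.8 and 100 in caring libraries. Esterase-like Locus_78203 had a control median of 102 and a caring median of 2308, with 76.4 and 623 in the 2 caring biparental male libraries and between 1348 and 7144 in the other 6. Esterase 6-like Locus_34500 showed the same uneven pair, 17.7 and 149. Alpha-amylase-like Locus_22548, which splits starch and glycogen, had medians of 39.7, 97.1 and 48.8.

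The protease inhibitor Locus_13441, dipetalogastin-like, was a member by a narrow route. In biparental females its control libraries held 19.4 and 0 scaled counts and its caring libraries 9.07 and 5.19, so the log-scale difference of 0.81 rested on the control at 0 and the mean scaled count was lower with caring. In uniparental females it went from 35.9 and 59.0 to 202 and 349.

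**Figure D3:**
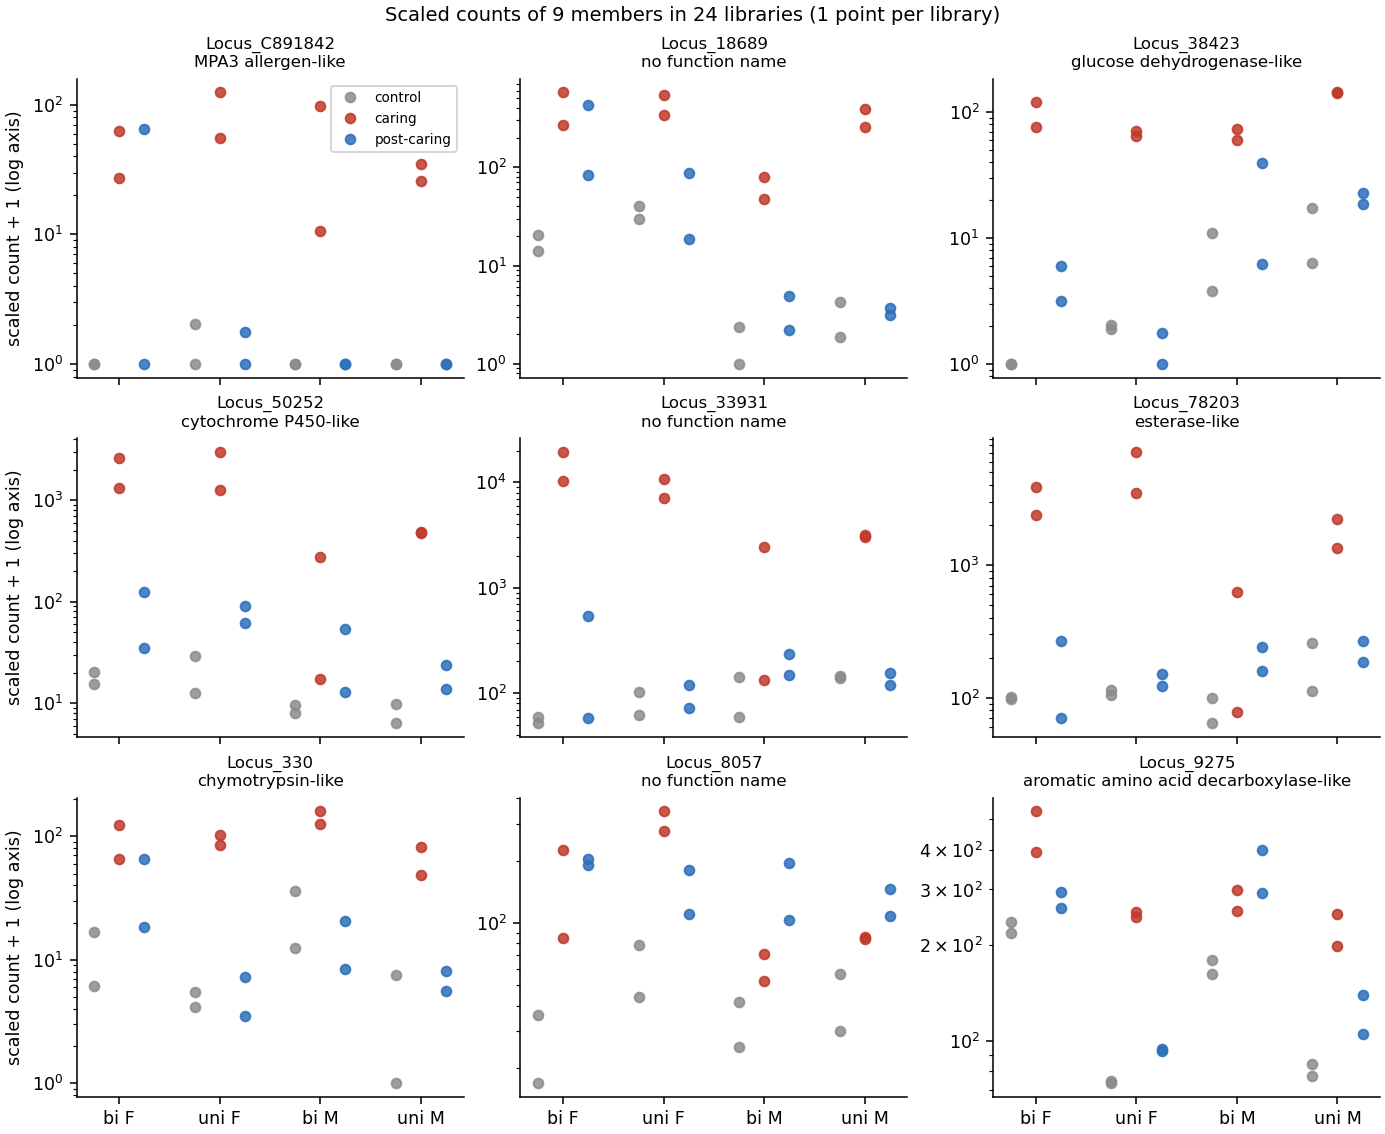
Scaled counts plus 1 on a log axis for 9 members, with 1 point per library, grouped as biparental and uniparental females (bi F, uni F) and males (bi M, uni M). Caring points (red) stand above control points (grey) in most panels, with 1 caring biparental male library within the range of the 8 controls in Locus_50252, Locus_33931 and Locus_78203; post-caring points (blue) of Locus_8057 stay high, between 102 and 204 scaled counts.

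Locus_33931, whose match has no function name, varied most between groups. Its controls held between 50.6 and 143 scaled counts. Caring libraries held 10399 and 19456 in biparental and 10658 and 7167 in uniparental females, and 134 and 2411 in biparental and 3157 and 3044 in uniparental males. The differences were 8.0, 6.77, 2.63 and 4.46 on the log2 scale, and caring biparental male replicate 1 lay between its own controls of 142 and 58.4. At the other end, the narrowest ranges of the 4 differences were those of Locus_78470, between 0.54 and 0.68, and Locus_17064, between 0.57 and 0.82, neither of which had a description.

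The odorant and chemosensory list held 26 loci, of which 10 met the thresholds and 9 were members. The 2 members with the highest mean scaled counts were both of this list. Locus_C895814, a match to odorant-binding protein 3, held between 920 and 4014 scaled counts in controls. With caring it held 17838 and 15853 in biparental and 20957 and 19163 in uniparental females, and 1315 and 4674 in biparental and 7897 and 10819 in uniparental males. Female caring libraries were all above male ones. Locus_C886346, a match to odorant binding protein 5, held between 865 and 4314 in controls and between 5432 and 9801 with caring, so that these 8 against 8 libraries did not overlap. The other 2 loci with that match differed from it. Locus_7343 had differences of 5.07 and 4.37 in biparental and uniparental females and of 0.81 and 1.64 in the males, and Locus_45785 of 4.18 and 2.98 in females and 0.63 and 1.32 in males. Locus_55249, a match to odorant-binding protein 1, followed the same order, with 4.63 and 3.40 in females and 0.69 and 2.31 in males. Differences of the remaining 4, Locus_52896, Locus_47332, Locus_18842 and the chemosensory protein Locus_6711, were between 0.56 and 2.88.

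**Figure D4:**
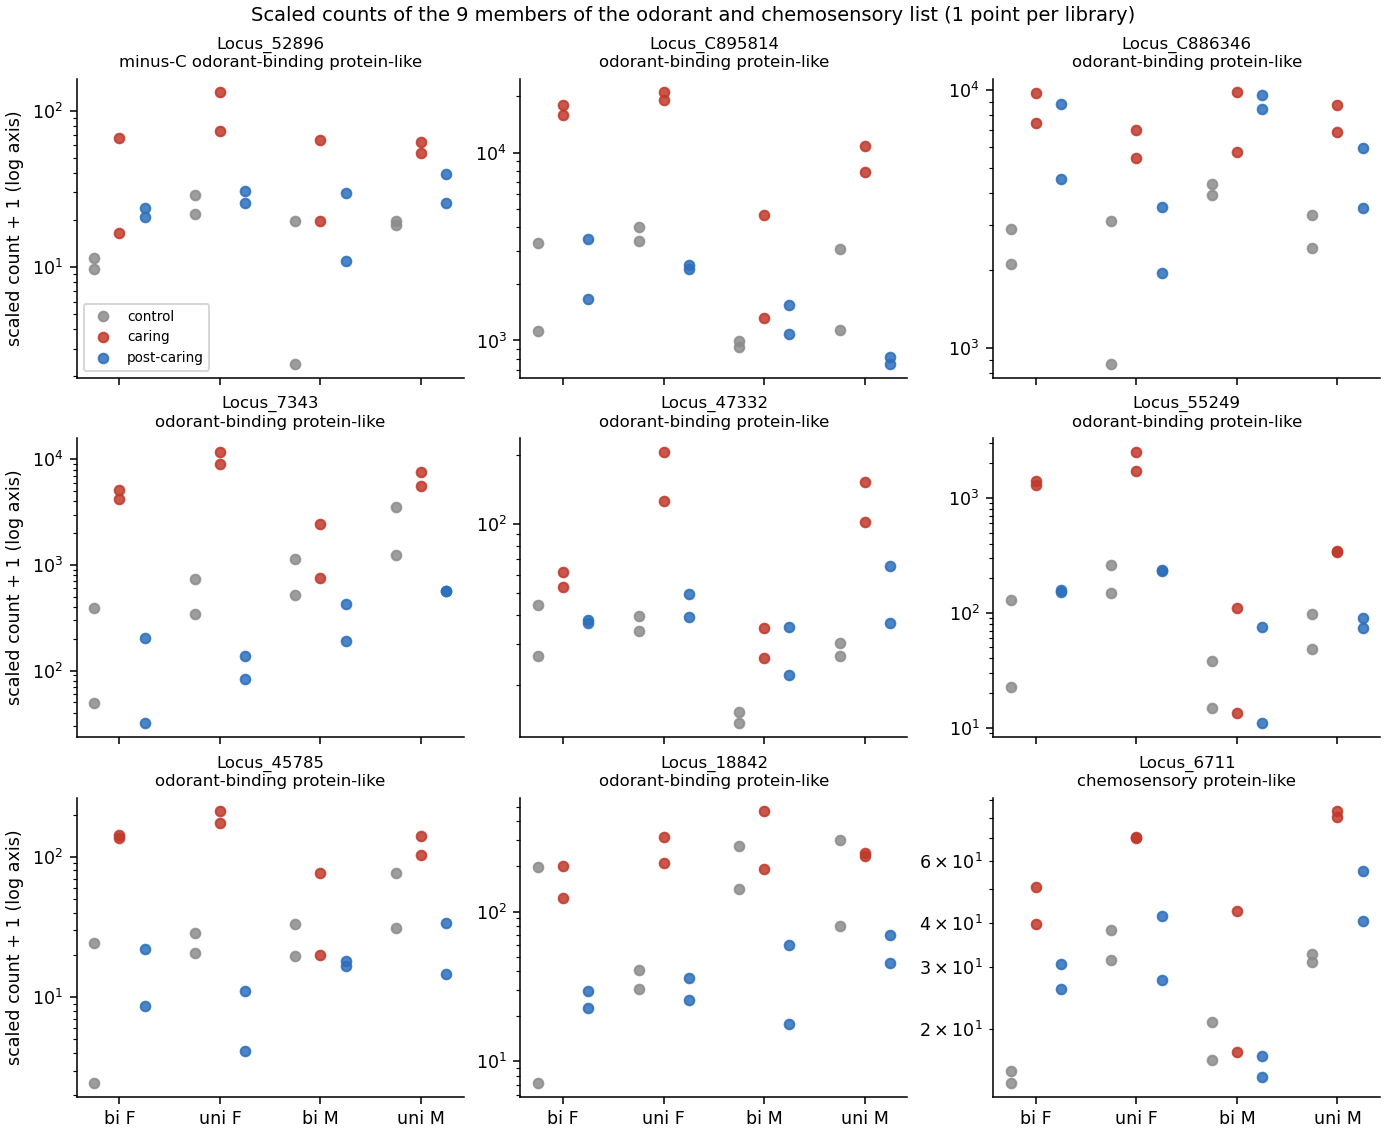
Scaled counts plus 1 on a log axis for the 9 members of the odorant and chemosensory list, with 1 point per library and groups abbreviated as biparental and uniparental females and males. In Locus_7343 and Locus_18842 the post-caring points (blue) lie mostly below the control points (grey), while in Locus_C886346 the post-caring points reach 9559 scaled counts in biparental males, within the range of the caring points (red).

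Among transporters, the 2 loci matched to solute carrier family 2, a family of sugar transporters, had their highest medians while caring. Locus_C886444 had medians of 183 in control, 726 in caring and 289 in post-caring libraries, and Locus_C887820 of 810, 4398 and 1271. The sodium-dependent phosphate transporter-like Locus_73327 had a narrow range of differences, from 1.01 to 1.33. Desaturase-like Locus_29596 was the only member picked by the words of the fatty acid list, which miss descriptions without a function name. Its enzyme class places a double bond in acyl chains, and its differences were between 0.58 and 1.5. The glucose dehydrogenase-like Locus_38423 was near 0 in females before caring, with 0 and 0 in biparental and 0.897 and 1.04 in uniparental controls, and at 2.79 and 9.97 in biparental and 5.30 and 16.3 in uniparental male controls. With caring it held 74.8 and 118, 69.9 and 64.0, 58.6 and 72.4, and 142 and 140 scaled counts in biparental females, uniparental females, biparental males and uniparental males. Caring and control libraries did not overlap.

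Whether the members stayed high after caring was tested with the post-caring libraries against the control libraries. The 4 differences of the choice used the control libraries and not the post-caring ones. Averaged over the 4 groups, 19 members were higher after caring than in controls and 2 were lower (edgeR quasi-likelihood test, p-values adjusted over all 9648 loci tested, adjusted p under 0.05), against 3.77% and 3.67% of all loci. The median fitted log2 fold change over the members was 0.49, with 89 of 100 above 0, and 0.01 over all loci. The choice favoured loci with low levels in these same control libraries, which can raise the fold changes and calls. The size of this effect was not tested. In the same comparison 9 of the 12 fat body loci and 14 of the 49 muscle loci were lower and 2 of the 5 photoreceptor loci were higher, and their part in the result was not tested. Without biparental female post-caring replicate 2 the calls were 12 and 1. The total of 21 was 12 without uniparental female post-caring replicate 1 or without uniparental male control replicate 1, 13 without uniparental female post-caring replicate 2 or uniparental male post-caring replicate 2, and 32 without biparental female post-caring replicate 1. The likelihood ratio test called 35 and DESeq2 34. Shares of all loci called under these alternatives are not given here, so nothing about the members is read from these counts.

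Post-caring biparental female replicate 2 stood apart from the other 7 post-caring libraries. Its median over the members was 1.02 above its controls, and 85 members lay above both controls. Its partner had a median of 0.27 with 56 members above, and in the other 6 post-caring libraries the medians were between 0.24 and 0.52 with 50 to 66 members above both controls. Below both controls lay 2 members in replicate 2, 13 in its partner and 12 to 20 in the other 6 libraries. The shares of all loci above or below both controls were not computed, and nothing is read from these counts. The median over all loci in replicate 2 was 0.04 above its controls. In replicate 2 Locus_18689 held 423 scaled counts against 82.8 in its partner, and Locus_330 held 64.3 against 17.4.

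The 2 members with the lowest adjusted p for a higher level after caring had matches without a function name. Locus_8057 held 34.9 and 15.9 scaled counts in biparental female controls and 204 and 189 after caring, 43.1 and 77.6 against 179 and 110 in uniparental females, 40.4 and 24.2 against 102 and 194 in biparental males, and 29.2 and 55.6 against 107 and 145 in uniparental males. No post-caring library overlapped a control library. The fitted log2 fold change was 1.99 ± 0.24 (SE; edgeR, adjusted p = 0.00107), and caring against post-caring libraries differed by -0.28 ± 0.21 (adjusted p = 0.477). Locus_34199 was higher by 1.85 ± 0.28 (edgeR, adjusted p = 0.00453), with between 18.6 and 159 scaled counts after caring and between 5.30 and 32.1 in controls. It fell from its caring level, by 1.67 ± 0.22 for caring against post-caring (adjusted p = 6.12e-05). Also higher after caring were Locus_9275, matched to an aromatic amino acid decarboxylase, an enzyme class that makes dopamine, serotonin or related amines, by 0.56 ± 0.10 (adjusted p = 0.00911), Locus_73327 by 0.66 ± 0.18 (adjusted p = 0.0357), Locus_29596 by 0.88 ± 0.20 (adjusted p = 0.0183) and Locus_C886346 by 0.93 ± 0.23 (adjusted p = 0.0272). The fitted values of these 4 are from the same edgeR test.

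Both members that were lower after caring than in controls were odorant-binding protein-like. Locus_7343 fell by 1.68 on the log2 scale (SE 0.41, edgeR adjusted p = 0.0261). Its controls held 391 and 48.0 scaled counts in biparental females, 343 and 731 in uniparental females, 522 and 1126 in biparental males and 1229 and 3545 in uniparental males. After caring the same groups held 30.5 and 200, 136 and 81.9, 429 and 190, and 563 and 568. The groups overlapped in biparental females alone. Locus_18842, matched to odorant-binding protein 1, fell by 1.61 (SE 0.46, edgeR adjusted p = 0.0426), with controls between 6.18 and 301 and post-caring libraries between 16.9 and 68.5. The call of Locus_7343 was lost when any of 6 of the 16 libraries was left out and that of Locus_18842 when any of 13 was. The fitted value was closest to 0 without biparental female control replicate 1, at -1.14 for Locus_7343 and -0.58 for Locus_18842.

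In single groups the edgeR test called 0 members higher or lower after caring. The shares of all loci called higher were 0% and 0% in biparental and uniparental females and 0.0104% and 0% in biparental and uniparental males, and the shares called lower were 0%, 0.0207%, 0% and 0%. An unadjusted p under 0.05 was found for 37 and 13 members in biparental and uniparental females and for 24 and 16 in biparental and uniparental males, and for 1570, 713, 1126 and 776 of the 9648 loci in the same order. Of these members 37 were higher and 0 lower in biparental females, 10 and 3 in uniparental females, 23 and 1 in biparental males and 12 and 4 in uniparental males. The likelihood ratio test called 7, 0, 5 and 2 members in these groups and DESeq2 called 5, 0, 5 and 0, where DESeq2 gave an adjusted p for only 9 members in uniparental females. In biparental females 18 members were called without post-caring replicate 1, which left replicate 2 as the only post-caring library of the group. Shares of all loci called under these alternatives are not given here, so nothing about the members is read from the alternative counts. The change from control to post-caring did not pass the edgeR test for a difference between the sexes or between social conditions in any member, or in any of the 9648 loci. An unadjusted p under 0.05 for a difference between the sexes was found for 7 members and 345 loci, and for one between social conditions for 10 members and 744 loci.

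The caring libraries were also compared with the post-caring libraries. Here 82 members were higher while caring and 0 lower (edgeR quasi-likelihood test, adjusted p under 0.05), against 5.63% of all loci higher and 8.32% lower. The likelihood ratio test and DESeq2 also called 82 higher and 0 lower. The caring side of this comparison chose the members, which favours higher caring levels. The lowest adjusted p was that of Locus_9106, matched to methionine aminopeptidase, which removes the starting methionine of new proteins. Locus_9106 had medians of 5078 in caring and 791 in post-caring libraries, a fitted log2 difference of 2.35 ± 0.16 (edgeR, adjusted p = 1.08e-07). Among the 18 not called were Locus_8057, Locus_29596 with a difference of -0.01 ± 0.19 and Locus_C886346 with 0.51 ± 0.23 (edgeR, adjusted p = 0.17). Of the 9 odorant and chemosensory members 8 were called higher while caring, of the 6 P450 and conjugation members 5, and of the 6 digestive hydrolases 5. Over the whole lists these counts were 10 of 26, 12 of 30 tested and 9 of 24 tested.

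**Figure D5:**
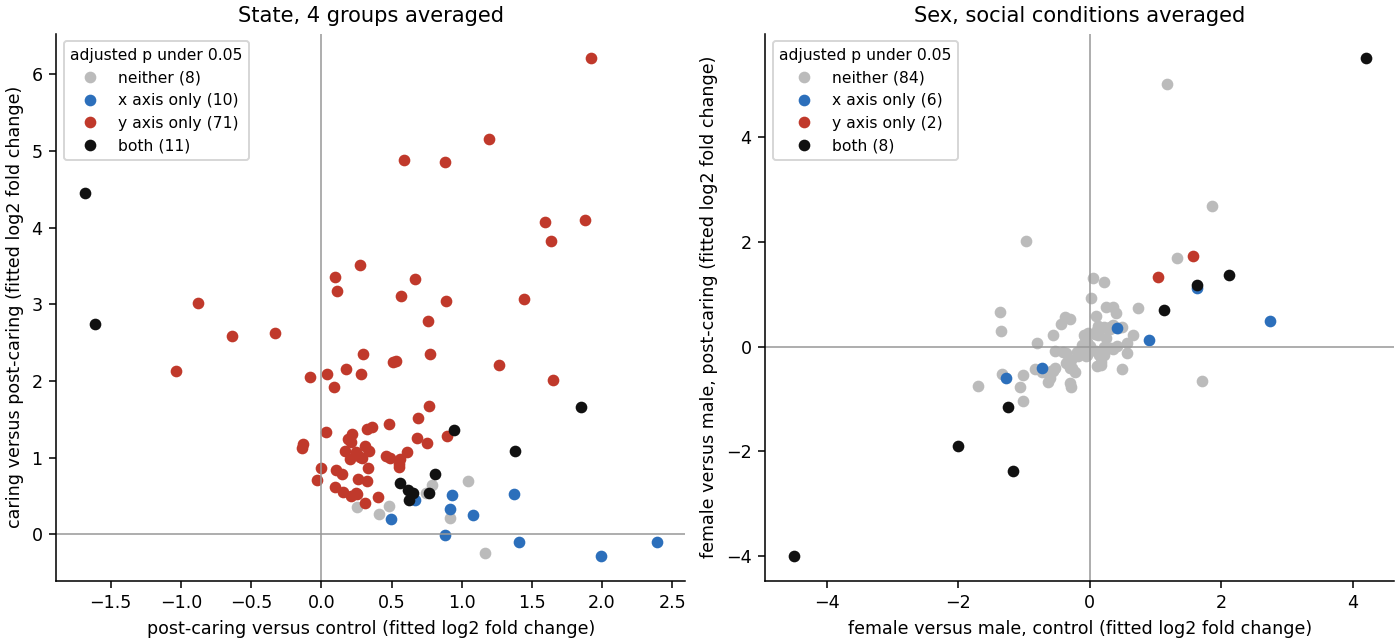
Each point is 1 of the 100 members and gives fitted log2 fold changes from the edgeR fit: on the left post-caring versus control against caring versus post-caring, on the right the female versus male difference in control against that in post-caring libraries; colours show which comparisons passed an adjusted p of 0.05. On the left 71 members were called for caring versus post-caring alone, 10 for post-caring versus control alone, 11 for both and 8 for neither; on the right 8 members were called in both states, and they lie at the lower left and upper right of the panel.

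Sex differences of the members were tested in post-caring libraries, which played no part in the differences that chose the members. Females were higher in 6 members and males in 4 (edgeR, adjusted p under 0.05), against 8.4% and 10.8% of all loci. In the same comparison 10 of the 12 fat body loci were higher in females, with mean sums of 3599350 and 2634870 in biparental and uniparental females against 40171 and 24453 in males, and 44 of the 49 muscle loci were higher in males. The part of these tissues in the sex differences was not tested. The total of 10 was 5 without uniparental female post-caring replicate 1 or uniparental male post-caring replicate 1, and 4 without uniparental male post-caring replicate 2. Locus_18689, a match without a function name, held 82.8 and 423 scaled counts in biparental females, 86.4 and 17.8 in uniparental females, 3.94 and 1.23 in biparental males and 2.12 and 2.72 in uniparental males. Females were above males in every library, with a log2 difference of 5.50 ± 0.76 (edgeR, adjusted p = 0.000107). Locus_C912944, a match to the fly gene CG5065, was higher in males, with 92.0 to 149 scaled counts against 17.7 to 34.9 in females, a difference of -2.37 ± 0.30 for females against males (adjusted p = 4.55e-05, edgeR). Glucose dehydrogenase-like Locus_38423 was also higher in males (-3.99 ± 0.68, edgeR adjusted p = 0.000786). Locus_6844 was higher in females by 0.71 ± 0.20 (edgeR, adjusted p = 0.0183), a call lost when any of 4 of the 8 libraries was left out.

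In control libraries 8 members were higher in females and 6 in males, against 6.62% and 8.64% of all loci, and 11 of the 12 fat body loci were higher in females and 37 of the 49 muscle loci in males. The total of 14 was 8 without biparental female control replicate 2, 6 without uniparental female control replicate 1 or uniparental male control replicate 2, and 4 without biparental male control replicate 2. Of the 14 called in controls and the 10 called after caring, 8 were called in both states, and all 8 had the same sign. The share of all loci called in both states was not computed, and nothing is read from this overlap. The fitted sex difference had the same sign in both states in 75 members, and in 77.7% of all loci. Locus_18689 held 13.0 to 39.4 scaled counts in female controls and 0 to 3.27 in male controls. Locus_6844 was higher in females (1.14 ± 0.20, edgeR adjusted p = 0.00109), as was the P450-like Locus_C910940 (2.13 ± 0.48, adjusted p = 0.00656), while Locus_9106 (-1.27 ± 0.23, adjusted p = 0.00128) and Locus_C912944 (-1.17 ± 0.31, adjusted p = 0.0173) were higher in males. These adjusted p are from edgeR as well, and the call of Locus_C912944 was lost when any of 4 of the 8 libraries was left out.

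Social condition was compared in the same way. After caring, 15 members were higher in uniparental and 34 in biparental beetles (edgeR, adjusted p under 0.05), against 29.9% and 27.5% of all loci. In controls, which had no carcass under either condition, 20 members were higher in uniparental and 12 in biparental beetles, against 29.3% and 25.8%. The uniparental and biparental libraries also differed in depth, and a batch that follows social condition cannot be told apart from it. Of the members, 24 were called in both states, all with the same sign. The share of all loci called in both states was not computed, and nothing is read from this overlap. The fitted difference had the same sign in both states in 75 members, and in 85.9% of all loci. Locus_9275 held 217 and 236 scaled counts in biparental and 73.6 and 72.5 in uniparental female controls, and 178 and 161 against 83.1 and 76.3 in males. Its log2 difference for uniparental against biparental was -1.32 ± 0.14 in controls (edgeR, adjusted p = 1.38e-06) and -1.53 ± 0.14 after caring (adjusted p = 1.68e-07). The phosphate transporter-like Locus_73327 was lower in uniparental controls by 1.18 on the log2 scale, a fitted value of -1.18 ± 0.26 (edgeR, adjusted p = 0.00118). In the other direction, Locus_54014 differed by 1.31 ± 0.16 in controls (edgeR, adjusted p = 3.67e-06), and Locus_21383 by 0.81 ± 0.14 in controls and 0.78 ± 0.14 after caring (adjusted p = 0.000151 and 0.000154). Neither had a description. After caring, dipetalogastin-like Locus_13441 held 52.6 to 115 scaled counts in uniparental and 0 to 2.63 in biparental libraries, a difference of 5.58 ± 0.65 (edgeR, adjusted p = 2.56e-06). Locus_36992, matched to 3-hydroxyisobutyryl-CoA hydrolase, an enzyme of valine breakdown, was lower in uniparental libraries (-1.44 ± 0.20, edgeR adjusted p = 1.75e-05), with 20.8 to 50.3 scaled counts against 75.2 to 110.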

How the data were processed

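Each of the 24 libraries held 10 pooled heads. Per the study's methods and the labels, the authors trimmed paired-end reads with Trimmomatic 0.30, assembled them without a genome, kept contigs that matched an arthropod, and assigned reads with Bowtie2 and RSEM. They deposited an expected count for each of 11403 loci and library, not normalized and not pooled. Between 33.3% and 48.9% of a library's values are not whole, and expected counts were rounded for the tests. Genome positions and sequences of the loci were not used here. For names, the descriptions of the 866 loci of a supplementary list were used, and its fold changes and p-values were not.

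The members, word lists and named loci were chosen with earlier results of these data known. Named loci were the 10 highest ranked, up to 3 per list, 2 inside and 2 outside the limit, the 2 with the lowest adjusted p in each direction of each comparison, the widest and narrowest ranges and the highest counts, which gave 40 loci, of which 1 is not reported here. Other list members were named after their values were seen.

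The test was edgeR 4.0.16 (R 4.3.3) quasi-likelihood, with TMM scaling and 12 group means, which left 12 residual degrees of freedom. filterByExpr with a minimum count of 10 kept 9648 loci and removed 1755, and every member was kept. The Benjamini-Hochberg adjustment ran over all loci, with a prior count of 0.125 for fold changes, and SE is the log2 fold change divided by the square root of F. The script was tested on simulated counts. Alternatives were the study's likelihood ratio test, DESeq2 1.42.0, RLE, no filter, the compared libraries alone, a replicate block and each library left out. Replicates are pools of separate beetles, and both the 2 pools per group and the depth of 14647691 to 23906173 counts limit precision.

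Titles and file headers number the 4 male control libraries differently, and titles were used. Deviations of same-numbered libraries from their group means correlated between -0.34 and 0.44, above 0.1 in 21 of 66 pairs of groups, so the numbers were not treated as pairs. Figures were drawn with matplotlib 3.10.9.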

Additional observations from a re-analysis of the deposited data

How the results depend on the processing

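Of 213 alternative counts, 188 stayed within 1.5 times the reported number and 25 moved further. For the fitted values of named loci, 348 of 378 alternatives kept the call and 30 lost it, with 0 changes of sign. The number of members called after caring against controls, averaged over groups, rose to 35 under the likelihood ratio test and to 34 under DESeq2. In single groups these tests called 7 and 5 members in biparental females and 5 and 5 in biparental males, and the likelihood ratio test called 2 in uniparental males. For females against males after caring the likelihood ratio test called 18. The cause of these shifts was not tested. Shares of all loci called under the alternatives are not given here, so calls may have risen or fallen over all loci as well.

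With single libraries left out, the calls ranged from 12 to 32 for post-caring against control averaged over groups, 0 to 18 for biparental females alone, 72 to 83 for caring against post-caring, 4 to 13 for females against males after caring and likewise 4 to 13 in controls, 38 to 49 for uniparental against biparental after caring and 22 to 33 in controls. The loci that met the rule numbered 191 to 259, the members that still met it 77 to 100, and those still among the 100 chosen 67 to 96. A minimum mean scaled count of 100 left 131 loci that met the rule, 57 of the members among them, all 57 still in the 100, because lower counts were then removed.

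With the replicate number as a block, the calls were 28 for post-caring against control, 83 for caring against post-caring, 13 and 14 for the sexes after caring and in controls, and 47 and 33 for social condition. With the male control numbers crossed, an alternative chosen after seeing the data, they were 30, 82, 13, 14, 48 and 34. A pair of libraries per group limits all of these tests.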
